A study of Rattus norvegicus with 16 samples.

Results

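The peroxisome proliferator-activated receptors (PPARs), their partners the retinoid X receptors (RXRs) and the coactivator PGC-1α were followed in isolated rat pancreatic islets. The members were the genes Pparg, Ppara, Ppard, Rxra, Rxrb, Rxrg and Ppargc1a, chosen by gene symbol, and every probe set that the array's annotation gives to one of them was taken. This gave 8 probe sets of 7 genes, out of 15923 probe sets and 10412 genes on the array. A probe set is a group of short oligonucleotide probes that together read 1 transcript, and its value is an intensity on a linear scale.

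The 14 arrays used fall into 4 groups. In 4 arrays, islets were infected with a PPARγ adenovirus (multiplicity 50) over 32 h, after which they spent 16 h in 200 nM GW347845, an agonist of PPARγ. In 4 arrays they had the PPARγ adenovirus for the same time and then 16 h in vehicle, which was 0.004% DMSO. In 3 arrays they had a null adenovirus, which carries no receptor, and then GW347845, and in 3 arrays the null adenovirus and then vehicle. The other column of each null virus group, replicate 2, held the same values under both labels and was left out, so the null virus groups hold replicates 1, 3 and 4. All groups were thus infected, and no uninfected islets were analysed here. The labels do not give the species of the viral PPARγ cDNA, its promoter, the share of islet cells infected, or whether replicates were separate islet preparations, so the p-values measure only the spread between these arrays, which may be technical.

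PPARs are nuclear receptors that bind DNA as heterodimers with an RXR, and fatty acids and their derivatives are natural ligands. PPARα is best known for fatty acid oxidation in liver, PPARδ for fatty acid use in muscle and many other tissues, and PPARγ for lipid storage in adipocytes, where it is the target of the thiazolidinedione drugs. The heterodimer recognises 2 copies of the half-site AGGTCA in a row with 1 base between them, an arrangement called DR1. RXRs also pair with the retinoic acid, thyroid hormone, vitamin D and liver X receptors, so PPARs share them with other receptors. PGC-1α, the product of Ppargc1a, is a coactivator that is recruited to PPARs and to other nuclear receptors and is known for mitochondrial biogenesis.

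The start of each gene was read for these sites, as a part of the DNA on which the receptors could act on their own genes. Sites further from the start were not searched. RefSeq windows of the rat build GRCr8, from 250 bases before to 50 bases after an annotated start, were matched for 6 of the 7 genes (7 windows; Ppard had none). The 2 windows of Pparg are shown 5′ to 3′, with the 50 bases from the annotated start onward in capitals. They lie on the plus strand of chromosome 4, at chr4:150096808-150097107 and chr4:150154522-150154821.
Pparg, first window: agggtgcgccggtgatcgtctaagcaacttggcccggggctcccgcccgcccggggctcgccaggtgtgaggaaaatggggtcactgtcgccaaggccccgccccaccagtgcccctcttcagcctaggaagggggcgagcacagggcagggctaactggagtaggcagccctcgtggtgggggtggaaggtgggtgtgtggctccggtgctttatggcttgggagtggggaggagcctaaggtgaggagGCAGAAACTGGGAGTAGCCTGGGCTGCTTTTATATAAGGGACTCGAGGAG
Pparg, second window: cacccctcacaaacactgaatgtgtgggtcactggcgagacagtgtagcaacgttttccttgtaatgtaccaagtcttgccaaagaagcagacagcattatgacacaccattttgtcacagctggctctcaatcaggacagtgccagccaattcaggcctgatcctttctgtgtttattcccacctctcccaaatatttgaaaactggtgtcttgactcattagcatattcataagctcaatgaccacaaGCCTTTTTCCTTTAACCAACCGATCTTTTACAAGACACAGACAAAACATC
The letters AGGTCA were searched on both strands, alone and as the repeat AGGTCANAGGTCA, which contains the half-site. Neither was found in the 7 windows of the member genes. Only exact letters were searched, and the repeat is so rare that finding none in 7 windows says little. Of 33469 windows of all genes, 5415 (16.2%) held the half-site and 18 (0.0538%) held the repeat.

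The islet label was checked against markers. The insulin gene Ins1 read between 4627 and 7093 on the 14 arrays, and the adipocyte markers Lep (0.9 to 3.7), Plin1 (9.8 to 20.4) and Cfd (16 to 38.1) were under the filter limit of 39.3, the 40th percentile of the table, while Fabp4, also on that list, read 9.8 to 780.7. Genes listed as duct or stromal markers were bright as well, with Krt8 at 1372 to 1731, Epcam at 1711 to 2101 and Vim at 859.5 to 1895. Krt8 and Epcam are general epithelial genes, and the makeup of the islets' cells was not estimated. Median intensity per array was 56.4 to 67.5, and the ratio of 3′ to 5′ signal, which rises as RNA degrades, was 8.36 to 18.9 for the Gapdh controls. The 18.9 was null virus compound replicate 3, and the next highest was 12.6. A probe set was tested only where it was above 39.3 in at least 4 of the 14 arrays. Of the 8 member probe sets 3 were tested (37.5%), those of Pparg, Ppard and Rxrg. Of the 15923 on the array without the 57 control probe sets, 63.5% were tested.

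Pparg, the gene the virus carries, is read by probe set 1369179_a_at. It had 5932.1, 4593.4, 5966.4 and 5548.7 intensity in replicates 1 to 4 of PPARγ virus with compound, and 6199.1, 4939.2, 5948.3 and 5283.5 in replicates 1 to 4 of PPARγ virus with vehicle. It had 25.6, 51.4 and 30.5 in null virus with compound and 32.3, 27.7 and 39.1 in null virus with vehicle. The virus groups do not overlap, and the lowest PPARγ virus array was 89.4-fold above the highest null virus array. Of the 6 null virus arrays only 1, null virus compound replicate 3 at 51.4, was above the filter limit, so Pparg was tested through its PPARγ virus arrays. The array does not separate viral transcript from the islets' own.

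Group means for Pparg were 5510 ± 640 intensity (SD, n = 4) in PPARγ virus with compound, 5593 ± 582 (SD, n = 4) in PPARγ virus with vehicle, 35.8 ± 13.7 (SD, n = 3) in null virus with compound and 33.03 ± 5.74 (SD, n = 3) in null virus with vehicle. Averaged over vehicle and compound, Pparg was at least 121-fold higher with the PPARγ virus, taking values under the limit as 39.3 (log2 change 6.92). Raising values in this way removes most of the spread between null virus arrays, so no p-value is given for it. With values as deposited, 5 of 6 null virus arrays being under the limit, the log2 change was 7.18 ± 0.13 SE (limma adjusted p = 2.46e-14). Vehicle and compound arrays of the same virus and replicate number deviated together, so the averaged effect was also fitted on the means of these pairs, 4 against 3. Pparg passed there too (7.18 ± 0.12 SE, adjusted p = 3.92e-09), and the exact two-sided permutation test with pairs kept whole gave p = 0.0571, the smallest possible. Among 10078 tested probe sets, 154 (1.53%) passed with the arrays taken as independent and 12 (0.119%) on pair means, and Pparg was the 1 member among them in both. It was also the only member called by the virus in vehicle, where 0.0397% of all probe sets passed, by the virus in compound (0.705%, with 0.635% higher and 0.0695% lower), and by virus and compound together against null virus with vehicle (0.665%).

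**Figure D1:**
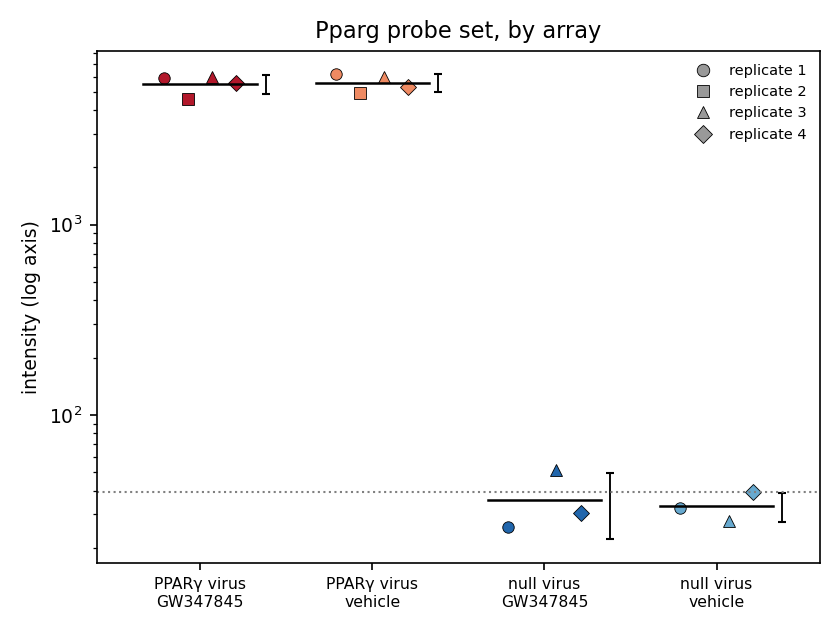
Intensity of Pparg on each of the 14 arrays, on a log axis, by group. Points are arrays with the replicate number as shape, lines are group means, side bars the SD, and the dotted line is the filter limit of 39.3. All 8 PPARγ virus arrays lie at or above 4593.4 and all 6 null virus arrays at or below 51.4.

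At this level Pparg stood beside insulin. It was the brightest probe set of the whole array on 2 of the 8 PPARγ virus arrays, replicate 1 of each treatment, and the second brightest on the other 6, where Ins1 alone was above it. Its value was 92.4% to 103.4% of that of Ins1 on the same array. Brightness of different probe sets depends on their probes, so this places Pparg within the array's range and does not compare amounts of RNA.

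Among the PPARγ virus arrays, replicate 2 had the lowest Pparg of its group in both treatments. Those 2 arrays also had the lowest summed intensity of the non-beta islet hormones glucagon, somatostatin, pancreatic polypeptide and peptide YY (Gcg, Sst, Ppy and Pyy). The sum was 8356, 453.4, 8899 and 2281 in replicates 1 to 4 of PPARγ virus with compound, and 8451, 941.7, 9788 and 2401 in replicates 1 to 4 of PPARγ virus with vehicle, against 6143, 5361 and 7412 in null virus with compound and 5325, 4569 and 9165 in null virus with vehicle. In bulk islets, fewer cells of a type and less RNA per cell cannot be told apart, and the part of the hormone sum in any result was not tested.

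With the agonist Pparg did not change beyond the spread between arrays. Under the PPARγ virus the log2 change with compound was -0.02 ± 0.17 SE (95% interval -0.38 to 0.34, exact two-sided permutation p = 0.886). Changes of this signal beyond 0.766-fold and 1.26-fold lie outside the interval. The signal holds viral and own transcript together, so the interval does not bound a change of the islets' own Pparg. It also lies at the top of the array's range, and whether brightness was limited there was not tested. Under the null virus the log2 change with compound was 0.06 ± 0.19 SE (95% interval -0.35 to 0.48, exact p = 0.9, where the smallest possible is 0.1), at values near the filter limit. The difference between these compound effects was -0.09 (95% interval -0.64 to 0.46). No member passed for the compound under the PPARγ virus, where 0.0595% of all probe sets did, or under the null virus, where 0% did. None passed for the compound averaged over both viruses (0.0198%) or for the interaction (0%). Of 10078 tested probe sets, 95 had an unadjusted limma p under 0.05 for the compound under the null virus and 143 for the interaction. Both shares are below 0.05. With the replicate number as a block within each virus, 0 members passed either, while the share of all probe sets that passed became 0.397% under the PPARγ virus, 0.139% averaged and 0.0496% for the interaction.

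Ppard, the gene of PPARδ, was the other PPAR measured above the limit, and on all 14 arrays (probe set 1374914_at). It had 105.8, 100.9, 88.5 and 96.7 intensity in PPARγ virus with compound, 124.1, 114.0, 120.1 and 80.4 in PPARγ virus with vehicle, 109.6, 105.2 and 92.4 in null virus with compound, and 112.1, 105.7 and 107.6 in null virus with vehicle. All groups overlap, and the highest and the lowest value both come from PPARγ virus with vehicle. With the PPARγ virus, averaged over treatments, the log2 change was -0.03 ± 0.10 SE (95% interval -0.25 to 0.18, adjusted p = 0.944, exact permutation p = 0.914 with pairs kept whole). The interval took the arrays as independent and spans 0.843-fold to 1.14-fold. On pair means the log2 change was -0.03 ± 0.12 SE. The higher Pparg was thus measured beside a Ppard value whose difference did not exceed the spread between arrays.

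With compound Ppard was lower in 6 of the 7 pairs of the same virus and replicate number, the exception being replicate 4 of the PPARγ virus. This did not pass. With the arrays taken as independent, the change was -0.11 ± 0.10 SE on the log2 scale averaged over both viruses (95% interval -0.33 to 0.10, exact permutation p = 0.193). With the replicate block it was -0.11 ± 0.09 SE (limma adjusted p = 0.828). Under the PPARγ virus alone it was -0.14 ± 0.13 SE with the arrays taken as independent (95% interval -0.42 to 0.14). The block gave -0.14 ± 0.11 SE there (limma adjusted p = 0.756). The second Ppard probe set, 1387684_at, read 0.9 to 11.6 and was above the limit on no array, so the 2 probe sets of this gene differ in whether they detect it.

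Ppara, the gene of PPARα, was close to the bottom of the scale on every array (probe set 1387278_at). It had 4.8, 3.9, 4.8 and 4.7 intensity in PPARγ virus with compound, 3.2, 5.0, 6.3 and 5.3 in PPARγ virus with vehicle, 3.6, 3.9 and 4.4 in null virus with compound, and 4.0, 3.0 and 5.7 in null virus with vehicle. The groups overlap, all values are under 39.3 and the gene was not tested. A low intensity bounds what these probes detected and does not show that the transcript was absent.

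Of the RXR genes, Rxrg (RXRγ, probe set 1370981_at) was above the limit on 13 of 14 arrays. It had 66.5, 52.1, 51.8 and 64.5 intensity in PPARγ virus with compound, 69.0, 47.4, 72.7 and 39.9 in PPARγ virus with vehicle, 53.6, 56.1 and 56.7 in null virus with compound, and 63.0, 57.6 and 27.8 in null virus with vehicle. The 2 lowest values were replicate 4 of vehicle under each virus, and the vehicle groups had the wider spread, with an SD of 7.87 in PPARγ virus with compound against 16.1 with vehicle, and 1.64 in null virus with compound against 19.0 with vehicle. This difference in spread was not tested. The log2 change with the PPARγ virus, averaged over treatments, was 0.15 ± 0.18 SE (95% interval -0.23 to 0.52, adjusted p = 0.822, exact permutation p = 0.457 with pairs kept whole). That interval took the arrays as independent, and on pair means the change was 0.15 ± 0.17 SE. With compound, averaged over viruses, the log2 change was 0.14 ± 0.18 SE (95% interval -0.23 to 0.52, exact permutation p = 0.547).

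Rxrb (RXRβ, probe set 1389051_at) lay just under the limit, between 27.9 and 44.0. It had 42.9, 37.1, 27.9 and 39.3 intensity in PPARγ virus with compound, 36.7, 36.3, 39.0 and 35.0 in PPARγ virus with vehicle, 33.8, 38.6 and 29 in null virus with compound, and 34.4, 44.0 and 38.9 in null virus with vehicle. Only 2 arrays were above 39.3, where 4 were needed, and the groups overlap. Rxra (RXRα, probe set 1369101_at) was lower. It read 9.9, 8.2, 10.5 and 8.5 in PPARγ virus with compound, 14.4, 7.4, 11 and 8.7 in PPARγ virus with vehicle, 9.0, 8.6 and 10.6 in null virus with compound, and 11.4, 9.8 and 10.5 in null virus with vehicle, with overlapping groups. RXRα and RXRβ are known as the widely expressed RXRs, and these intensities do not rank the 3 genes, since each probe set has its own brightness.

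Ppargc1a (probe set 1370089_at) read 13.5, 4.5, 8.6 and 4.2 intensity in PPARγ virus with compound, 9.1, 3.6, 11.1 and 2.1 in PPARγ virus with vehicle, 14.9, 5.7 and 2.6 in null virus with compound, and 7.4, 7.6 and 4.2 in null virus with vehicle. It was above the limit on 0 arrays, and the groups overlap.

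With no filter on low values, the 5 dim member probe sets (the second Ppard, Ppara, Rxrb, Rxra and Ppargc1a) gave 40 tests over 8 contrasts. Of these 0 passed, and 0 had an unadjusted p under 0.05 in limma. The lowest adjusted p was 0.708, and log2 changes ran from -0.59 to 0.60. At such intensities background makes up much of the signal, so a change in the transcript could go unmeasured.

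**Figure D2:**
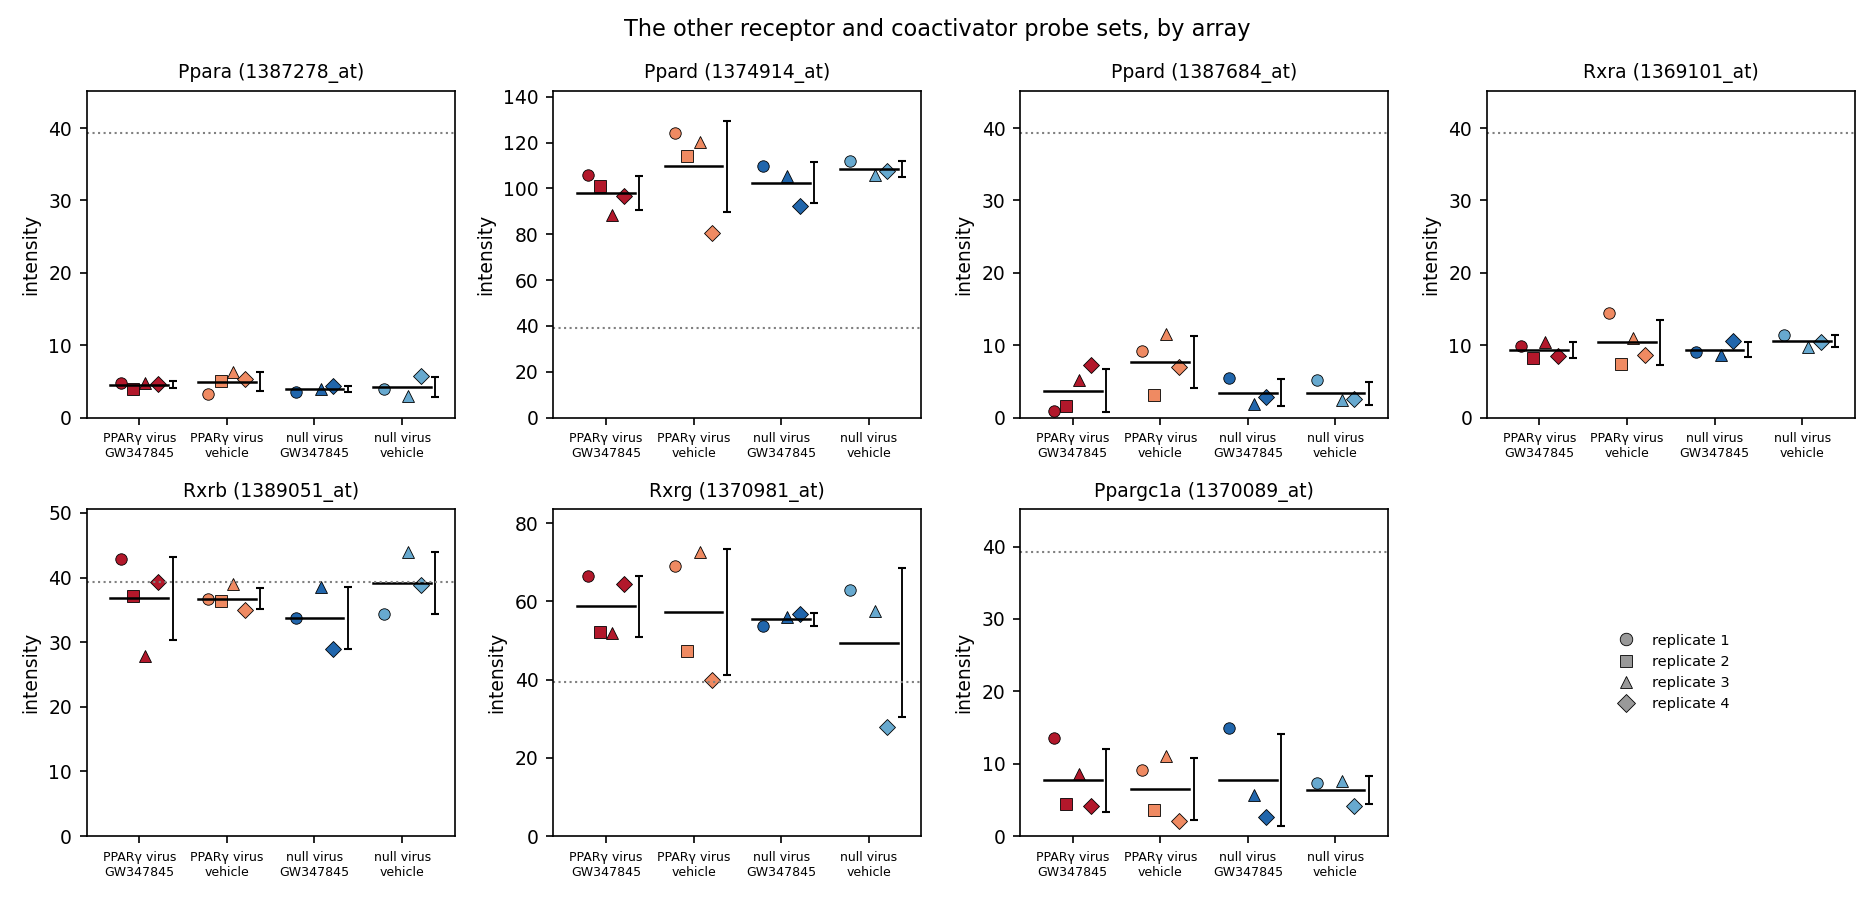
Intensity of the other 7 member probe sets on each of the 14 arrays, by group, with points, lines, side bars and the dotted limit of 39.3 as in the plot of Pparg. The groups overlap in every panel, and Ppard 1374914_at is the only probe set above the limit on all 14 arrays.

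**Figure D3:**
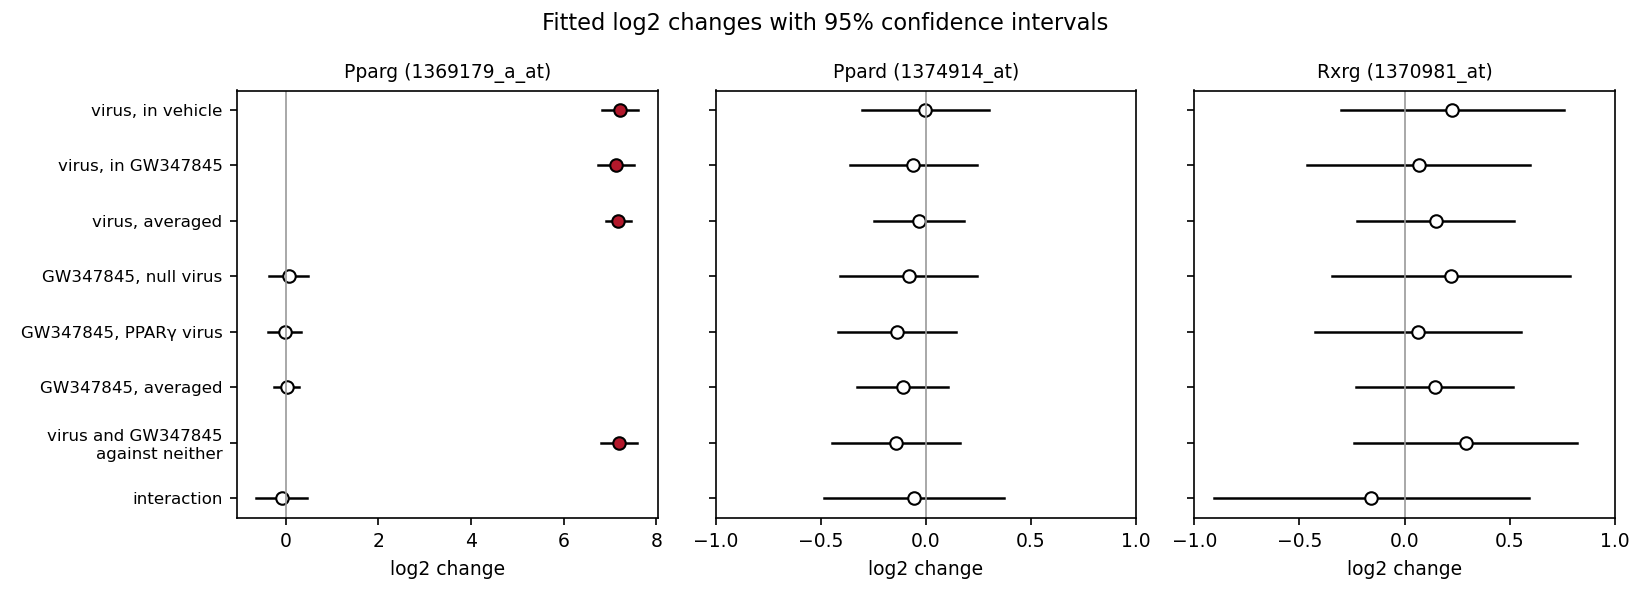
Log2 change with its 95% interval for Pparg, Ppard and Rxrg in each contrast. Filled red points passed at an adjusted p under 0.05, which held only for Pparg in the contrasts that set PPARγ virus against null virus, between 7.14 and 7.22 with values as deposited.

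The genes whose pattern over the 14 arrays was most like each tested member were found as the smallest root mean square difference of standardized log2 values, over 8485 probe sets. For Pparg they were Edf1 (0.287), Sgk2 (0.340) and Plek (0.344), where the median of all probe sets was 1.44. Edf1 averaged 555.5 intensity in PPARγ virus with compound, 522.5 in PPARγ virus with vehicle, 387.4 in null virus with compound and 394.4 in null virus with vehicle. Standardizing removes size, so Edf1 shares the step between viruses with Pparg but not its height. For Ppard the nearest were Trpv5 (0.472), Btbd9 (0.488) and Nav1 (0.488), with a median of 1.37 over all, and for Rxrg Ltbp4 (0.460), Npffr2 (0.491) and Dlgap4 (0.528), with a median of 1.39. The arrays share groups and libraries, and these values are a description.

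Other receptors that pair with an RXR were read next. Of 13 listed, all on the array, 7 were tested, and with the PPARγ virus averaged over treatments 1 was higher and 0 were lower, against 1.07% and 0.456% of all probe sets. On pair means, and with values under the limit raised to it, 0 were called. Their median log2 change was 0.23 (0.18 with values raised), against -0.01 over all. The gene was Nr1h3, which encodes the liver X receptor LXRα, a sensor of oxysterols. It had 58.5, 61.1, 48.1 and 49.6 intensity in PPARγ virus with compound, 37.3, 44.4, 31.7 and 44.0 in PPARγ virus with vehicle, 24.5, 30.2 and 21.7 in null virus with compound, and 26, 21.8 and 24.4 in null virus with vehicle. Every PPARγ virus array was above every null virus array, and all 6 null virus arrays were below 39.3, so Nr1h3 was tested through its PPARγ virus arrays.

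For the virus averaged over treatments, Nr1h3 had a log2 change of 0.79 ± 0.12 SE with values as deposited (adjusted p = 0.00393). It did not pass on pair means (adjusted p = 0.164) or with values raised to 39.3 (0.25, adjusted p = 0.0965). Raising gives every null virus array the same value, so p-values of Nr1h3 from that fit do not measure the spread between those arrays. In compound, where arrays are not paired, the change was 0.97 ± 0.18 (adjusted p = 0.0150), and in vehicle 0.61 ± 0.18 (adjusted p = 0.533). In compound the change was 0.88 to 1.08 with arrays left out. The call there was lost without PPARγ virus compound replicate 1 (adjusted p = 0.0617), null virus compound replicate 1 (0.0743) or replicate 4 (0.105), or both PPARγ virus replicate 2 arrays (0.0610). It was also lost with the groups compared alone (0.0686) and with values raised to the limit (0.42, 0.0663). The compound effect on Nr1h3 under the PPARγ virus did not pass (0.43, adjusted p = 1.00, and 0.445 with the replicate block). The bile acid receptor gene Nr1h4 had a change of 0.63 (adjusted p = 0.133) with the virus averaged over treatments, and Thra, Thrb, Rara, Rarb and Nr4a1 did not pass either.

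Genes of the retinoid pathway, which makes, carries and degrades the ligands of retinoic acid receptors and RXRs, had 11 of 13 members on the array and 6 tested. With the virus averaged over treatments 1 was higher and 0 were lower, against 1.07% and 0.456% of all probe sets, and on pair means 0 were called, against 0.119%. The median log2 change was 0.13, against -0.01 over all. It was Dhrs3, a retinaldehyde reductase that turns retinaldehyde back to retinol. It had 171.1, 110.0, 160.1 and 146.7 intensity in PPARγ virus with compound, 114.7, 57.1, 116.6 and 98.3 in PPARγ virus with vehicle, 64.7, 54.0 and 52.7 in null virus with compound, and 50.9, 52.4 and 56.5 in null virus with vehicle. In each treatment the virus groups do not overlap, though the lowest PPARγ virus array, vehicle replicate 2 at 57.1, was below the highest null virus array with compound at 64.7.

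Dhrs3 rose 2.43-fold with the virus in compound (log2 change 1.28 ± 0.21 SE, adjusted p = 0.00860). In vehicle the change was 0.76 ± 0.21 (adjusted p = 0.474). Averaged over treatments it was 1.02 ± 0.15, which passed with the arrays taken as independent (adjusted p = 0.00243) and did not pass on pair means (0.117). The call in compound was lost without null virus compound replicate 3 (adjusted p = 0.0561), the array with the Gapdh ratio of 18.9, or replicate 4 (0.0567). For the compound under the PPARγ virus the change was 0.61 ± 0.20 SE, which did not pass without pairing (adjusted p = 1.00) and passed with the replicate block (adjusted p = 0.0440). The interaction for Dhrs3 was 0.52 (adjusted p = 1.00), so its change with compound was not shown to differ between the viruses.

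**Figure D4:**
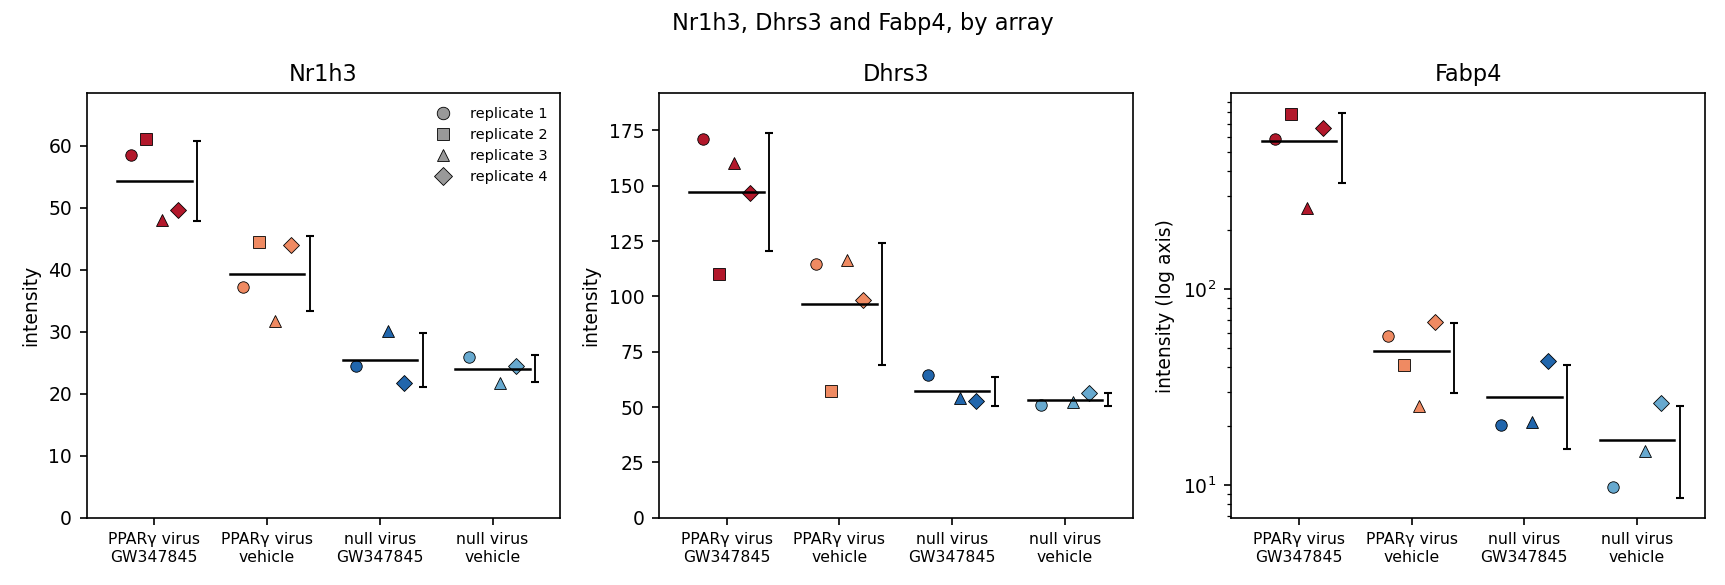
Intensity of Nr1h3, Dhrs3 and Fabp4 on each of the 14 arrays, by group, with points, lines and side bars as in the plot of Pparg. The axis is linear for Nr1h3 and Dhrs3 and a log axis for Fabp4, and the filter limit is not drawn. Nr1h3 is at or above 48.1 in PPARγ virus with compound and at or below 30.2 in the null virus groups.

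Coregulators of nuclear receptors, factors that regulate Pparg transcription, and partners of PGC-1α held no call in any contrast. Of 20 coregulators 13 were on the array and 10 were tested, with a median log2 change of 0.07 for the virus averaged over treatments. The corepressor gene Ncor1 had 0.25 (adjusted p = 0.205), Med1, a Mediator subunit that binds nuclear receptors, had -0.20 (0.532), and the histone acetyltransferase gene Crebbp had -0.26 (0.534). Of 11 regulators of Pparg transcription, which act in adipocyte differentiation, 8 were tested, with a median of 0.07. Klf4 had 0.44 (adjusted p = 0.284), Cebpd -0.28 (0.341) and Cebpb 0.33 (0.503), while Cebpa read 1 to 3.1 intensity and was not tested. Of 13 partners and effectors of PGC-1α, 9 were on the array and 8 were tested, with a median of 0.01. The CREB coactivator gene Crtc2 had 0.56 (adjusted p = 0.192), Foxo1 had 0.22 (0.562) and the estrogen-related receptor gene Esrra had -0.07 (0.908).

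Known target genes of the PPARs were the list in which most calls fell. Of 35 genes 29 were on the array and 25 were tested. With the virus in compound 13 were higher and 0 lower (median log2 change 0.94), against 0.635% and 0.0695% of all probe sets, and with the virus in vehicle 1 was higher (0.25), against 0.0397%. With the virus averaged over treatments 13 were higher and 0 lower (0.55) with the arrays taken as independent, against 1.07% and 0.456%, and 3 were higher on pair means, against 0.119%. Of the 13 averaged calls, Ehhadh, Cd36 and Aqp7 were under 39.3 on all 6 null virus arrays and were tested through their PPARγ virus arrays. With values raised to the limit 10 were called for the virus averaged (median 0.46) and 9 in compound (0.58). Raising removes spread between dim arrays, so these counts are a description. The count of 13 in compound was 8 without null virus compound replicate 3, the array with the Gapdh ratio of 18.9, whose part in the count was not tested.

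The compound called 5 targets as higher and 0 as lower under the PPARγ virus (median 0.49), against 0.0595% of all probe sets, and 10 with the replicate block, against 0.357%. It called 0 under the null virus. The list was chosen with these results known, so it is no independent evidence of its direction.

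The 3 that passed on pair means for the virus averaged over treatments were Gpd1, the glycerol-3-phosphate dehydrogenase of triglyceride synthesis (5.24-fold, adjusted p = 0.00324), G0s2, an inhibitor of adipose triglyceride lipase (2.498-fold, 0.0186), and Fabp4, the adipocyte fatty acid binding protein (0.0207). For Fabp4, with 1 of 6 null virus arrays above the limit, the fold was at least 3.85. Fabp4 had 585.4, 780.7, 259.8 and 662.2 intensity in PPARγ virus with compound, 58.0, 41.2, 25.5 and 68.0 in PPARγ virus with vehicle, 20.3, 21.1 and 43.0 in null virus with compound, and 9.8, 14.9 and 26.3 in null virus with vehicle. Every PPARγ virus array with compound was above every other array, while the other 3 groups overlap. Fabp4 was thus high where receptor and agonist were both given, while Pparg averaged 5510 with the agonist and 5593 without it. Fabp4 is also 1 of the 7 listed adipocyte markers, of which 4 are on the array. Their summed intensity was 304.1 to 832.2 in PPARγ virus with compound, 68.1 to 101.2 in PPARγ virus with vehicle, 56.8 to 72.5 in null virus with compound and 45.4 to 64.9 in null virus with vehicle. The other 3 markers, Plin1, Lep and Cfd, were at the low values given above, Lep at or below 3.7 on every array.

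Under the PPARγ virus the compound changed Fabp4 by 3.42 ± 0.36 SE on the log2 scale (adjusted p = 7.37e-04), G0s2 by 1.21 ± 0.16 (0.00817) and Angptl4, a secreted inhibitor of lipoprotein lipase, by 2.17 ± 0.33 (0.0220). The count of 5 was 1 without PPARγ virus compound replicate 4 or PPARγ virus vehicle replicate 3, 2 without PPARγ virus compound replicate 2, and 3 without PPARγ virus compound replicate 1 or PPARγ virus vehicle replicate 1 or 2. The call of G0s2 was lost without PPARγ virus compound replicate 4 (adjusted p = 0.0517) or PPARγ virus vehicle replicate 3 (0.0503), with all 16 columns (0.0727) and with the groups compared alone (0.114). That of Angptl4 was lost without PPARγ virus compound replicate 1, 2 or 4 or PPARγ virus vehicle replicate 2, 3 or 4 (adjusted p between 0.0622 and 0.0935), without both replicate 2 arrays (0.338) and with the groups compared alone (0.114), and that of Fabp4 with none of the arrays left out. With the block, the adjusted p of Fabp4, G0s2 and Angptl4 was 1.22e-06, 1.58e-05 and 5.71e-04. With values as deposited, the difference of the compound effect between viruses did not pass for any target without pairing. With values raised to the limit, which removes spread between dim arrays, the difference passed for 1 target. With the replicate block it passed for Fabp4 (2.81, adjusted p = 0.00104) and G0s2 (1.08, adjusted p = 0.00464).

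**Figure D5:**
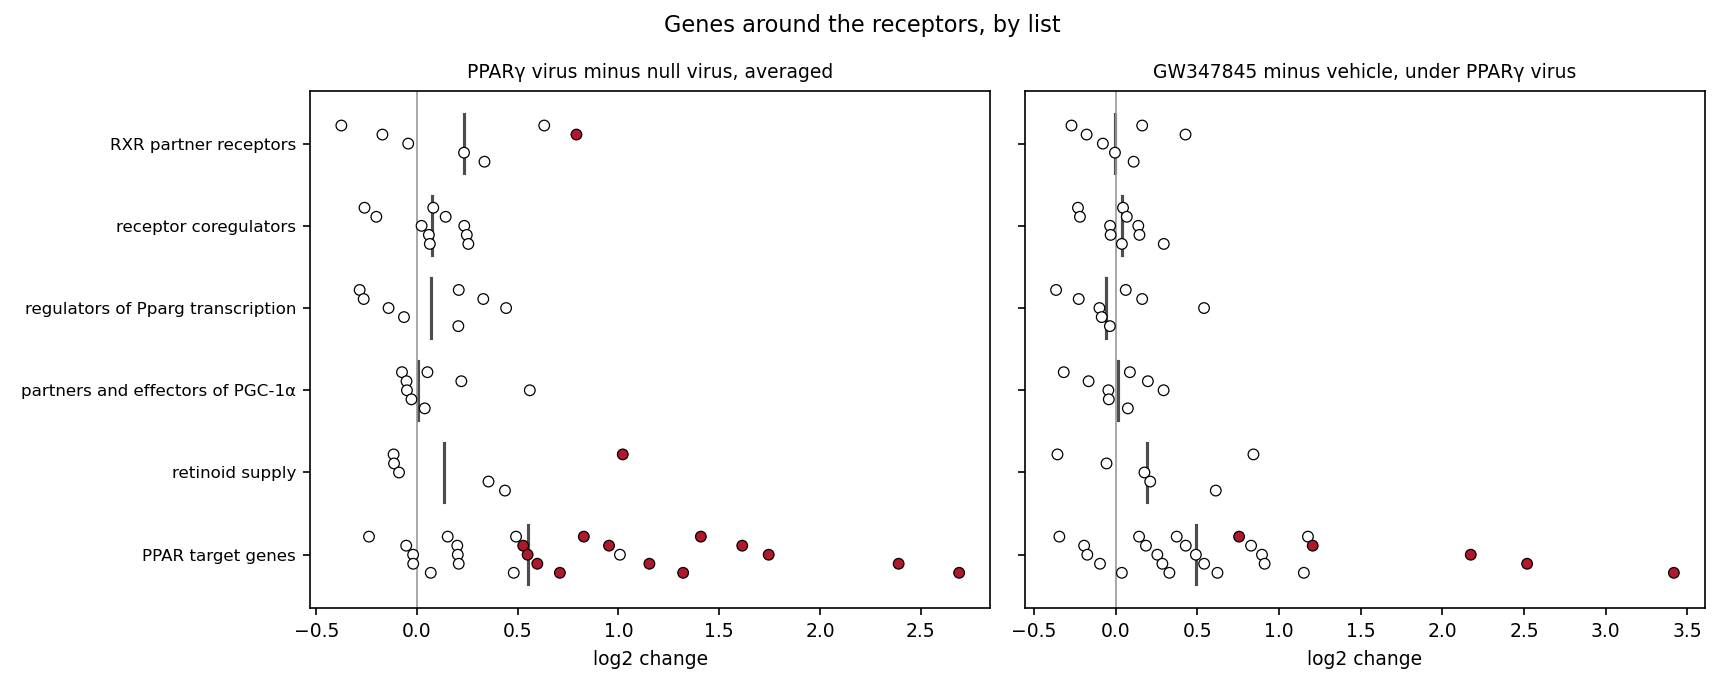
Log2 change of each tested gene of the 6 lists, for the virus averaged over treatments and for the compound under the PPARγ virus. Filled red points passed at an adjusted p under 0.05, vertical ticks are list medians. Of the 25 target genes 13 passed for the virus and 5 for the compound with the arrays taken as independent, while the coregulators, the regulators of Pparg transcription and the partners of PGC-1α hold no filled point.

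RefSeq windows were matched for 8 of the 13 target genes called for the virus averaged with the arrays taken as independent (9 windows). The half-site AGGTCA was in 2 of these 9 windows (22.2%), against 16.2% of all 33469 windows. The repeat was in 0, against 0.0538% of all windows. At that share, finding none in 9 windows says little, and repeats with changed letters were not searched. The windows were those of Acadvl, the very long chain acyl-CoA dehydrogenase of fatty acid oxidation, with 2 half-sites on the gene's strand, and G0s2, with 1 on the opposite strand. Both genes lie on the minus strand. The 30 bases around each site are shown on the gene's strand of GRCr8, 5′ to 3′, with the half-site in capitals. They are at chr10:55236857-55236886, chr10:55236705-55236734 and chr13:107335908-107335937.
Acadvl, first site: atggatcaccctAGGTCAagtagaatacag
Acadvl, second site: agacgggagaagAGGTCAgtggtcaaggct
G0s2 site: cgcctggacgccTGACCTccttcagcgagt
In the second Acadvl site the half-site is followed by g and then by tggtca, which differs from AGGTCA in 1 letter. A match is a description of letters in the window, and binding was not measured.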

How the data were processed

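The authors deposited 1 table of intensity values for 15923 probe sets on 16 columns, without detection calls. Which software summarised the probes is not given in the sources used here, and neither is a build; after trimming 2% at each end, every array had a mean of 150.0, so no further normalization was done. Arrays give no depth; their number limits the precision. Probe names came from the platform annotation, updated through a RefSeq rat table: 12789 probe sets named 1 gene, 312 several and 2822 none.

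The columns labelled replicate 2 in the 2 null virus groups were identical in 100% of values (0.936% in the next pair), and both were left out, leaving 14 arrays. Values were taken as log2(intensity + 4.6), where 4.6 is the 10th percentile of positive values, so fold changes understate changes of dim genes. Filtering (above 39.3 in at least 4 arrays; 57 control probe sets left out) kept 10078 probe sets, of which 8488 named 1 gene. A mean per group was fitted over all 4 groups with limma 3.58.1 in R 4.3.3 (eBayes with trend), with Benjamini-Hochberg adjustment over all tested probe sets and a threshold of 0.05. Single values had exact two-sided permutation tests. The code was tested on simulated data. Tables and figures used Python 3.11.15 and matplotlib 3.10.9.

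Replicate numbers were checked for pairing on deviations from group means. For arrays that share virus and number r was 0.445 to 0.702 (7 pairs), and for arrays that share the number across viruses -0.139 to 0.433 (12 pairs). Numbers were thus taken to pair arrays within each virus, from the data and not the labels. The virus averaged over treatments was therefore also fitted on the mean of each pair as 1 sample.

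Members, gene lists and tests were chosen with earlier results of these data known. Every member probe set is named, as are, of each list, up to 3 called genes by smallest adjusted p (or by smallest p where none passed) and the 3 genes most like each tested member. A list gene was represented by its brightest probe set. Other genes were named after their values were seen. Alternatives were pseudocount, filter, normalization, trend, the doubly labelled array, groups alone, replicate block, leaving out each array and, added after seeing the data, leaving out both PPARγ virus replicate 2 arrays, raising values to the limit and the pair means.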

Additional observations from a re-analysis of the deposited data

Results flagged for a closer look

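Ppara in PPARγ virus with compound had replicate 2 at 3.9 intensity, apart from the others at 4.7 to 4.8; the gap was 0.889 of the group's range, above Dixon's critical value of 0.829 for 4 arrays. It was the 1 such case among 50 groups checked, where chance gives about 2.5, and all values are far under the filter limit.

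The compound effect under the PPARγ virus differed from that under the null virus for Fabp4 by 2.81 on the log2 scale (limma adjusted p = 0.00104) and for G0s2 by 1.08 (adjusted p = 0.00464), both with the replicate block. Without it, and with values as deposited, the adjusted p was 1.00 for both. Fabp4 averaged 572 and 48.2 intensity in PPARγ virus with compound and with vehicle, and 28.1 and 17.0 in null virus with compound and with vehicle.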

How the results depend on the processing

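The rise of Pparg with the virus passed under every alternative that tested it. The virus carries Pparg, and the filter was met through the PPARγ virus arrays. Passing was thus set by the design and is no independent evidence. The stricter filter (above 39.3 in at least 11 arrays) gave 0 members called for the virus in vehicle, in compound, averaged and combined, since Pparg was above the limit in 9 arrays only. For Pparg the log2 change averaged over treatments was lowest with a pseudocount of 32 (6.40). Ppard and Rxrg passed in none of 452 fits (lowest adjusted p 0.547). With the replicate block within each virus, 0 members were called for the compound, with log2 changes of -0.02 (Pparg), -0.14 (Ppard) and 0.06 (Rxrg) under the PPARγ virus. Called target genes ranged over alternatives from 3 (pair means, against 13) to 15 for the virus averaged, 7 to 15 in compound, 0 to 4 in vehicle, 9 to 14 combined, and 1 to 10 for the compound under the PPARγ virus. The virus in compound gave 8 without null virus compound replicate 3, against 13. All calls were 154 for the virus averaged (12 on pair means, 76 to 134 leaving out 1 array, 414 with a block over all groups), 71 in compound (31 to 75, 211), 4 in vehicle (3 to 7, 34) and 67 combined (40 to 73, 177); for the compound under the PPARγ virus they were 6 (2 to 7) and 40 with the block within each virus, and for the compound averaged 2 (1 to 4) and 14. With the groups compared alone they were 43 for the virus in compound, 1 in vehicle, 42 combined and 2 for the compound under the PPARγ virus; with the stricter filter 47, 1, 51 and 4, and 1 for the compound averaged. The causes were not tested. Dim probe sets and 3 or 4 arrays a group limit what could be measured.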
